A study of Mus musculus with 6 samples.

Results

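The genes described here are 44 members of the Wnt and beta-catenin pathway, out of 24318 gene symbols in the RNA-seq expression tables of mouse DN1 thymocytes, the earliest of the double-negative stages of T-cell development. The members were chosen by name, from the ligands and receptors down to beta-catenin, its partners and its feedback targets, and all 44 symbols were found in each of the 6 libraries. The sort kept cells with CD44 and without CD25, CD8a, TCRb or lineage markers, from mice aged 5 to 8 weeks. 3 libraries carry the genotype label Tle134-deficient, read here as lacking Tle1, Tle3 and Tle4, and 3 carry the label WT. No source used here gives the alleles, the driver of deletion or the strain. No label ties the replicates of a group to separate animals, so p-values here measure spread among libraries that may be technical.

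The targeted genes were read first as a check of the labels. In FPKM (fragments scaled to transcript length and to the mapped fragments of the library), Tle1 stood at 11.5, 11.3 and 11.1 in the 3 libraries labelled Tle134-deficient and at 1.37, 1.19 and 3.61 in WT. Tle3 stood at 82.6, 77.5 and 58.6 FPKM in the deficient-labelled libraries and at 26.1, 35.9 and 23.4 FPKM in WT, and Tle4 at 27.8, 35.2 and 17.8 FPKM in the deficient-labelled libraries and at 17.9, 18.8 and 14.5 FPKM in WT. Tle1 and Tle3 were thus above WT in every library, which goes against the label, although no adjusted p passed (limma, 0.101 for Tle1, 0.232 for Tle3 and 0.728 for Tle4). A locus value would include reads outside a deleted exon and so checks the label only in part, and the group is named here by its label alone. Depth is unknown, since the files give no counts. The deposited interval of each value implies about 1.51e+06 to 4.34e+06 fragments per deficient-labelled library and 1.42e+06 to 3.24e+06 per WT library in annotated loci, with replicate 1 of either group the shallowest.

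Wnt proteins are secreted lipid-modified ligands that bind Frizzled receptors together with the coreceptors Lrp5 and Lrp6. Without a ligand, a destruction complex of Axin, Apc, glycogen synthase kinase 3 and casein kinase 1 marks beta-catenin for degradation. With a ligand, Dishevelled recruits that complex to the membrane, beta-catenin accumulates, and in the nucleus it binds Tcf/Lef factors, on which Groucho/Tle corepressors otherwise sit. In the thymus the pathway is known for its Tcf/Lef arm, since Tcf7 and Lef1 are needed for early T-cell development.

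Feedback targets of the pathway are classically read through Tcf/Lef sites, and 3 upstream regions are shown so that a reader can see where such letters lie in genes whose levels are given below. The letters searched were CTTTGAT and CTTTGAA on both strands, in the 250 bases before each start site that RefSeq lists (build GRCm38.p6). Capitals mark a match, and the sequences run 5′ to 3′ on the strand of the gene. The regions are chr2:70474673-70474922 on the plus strand for Sp5, chr19:30549497-30549746 on the minus strand for Dkk1 and chr11:108920099-108920348 on the plus strand for Axin2.
Sp5: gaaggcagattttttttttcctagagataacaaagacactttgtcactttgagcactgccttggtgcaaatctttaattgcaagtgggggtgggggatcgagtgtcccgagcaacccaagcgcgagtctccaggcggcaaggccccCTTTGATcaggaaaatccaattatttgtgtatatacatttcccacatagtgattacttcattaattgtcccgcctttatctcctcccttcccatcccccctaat
Dkk1: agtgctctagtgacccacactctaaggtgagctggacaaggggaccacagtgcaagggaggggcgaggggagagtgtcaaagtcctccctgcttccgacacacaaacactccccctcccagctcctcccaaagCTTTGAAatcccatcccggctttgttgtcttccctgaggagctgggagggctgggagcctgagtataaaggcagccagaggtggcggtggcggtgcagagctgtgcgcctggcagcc
Axin2: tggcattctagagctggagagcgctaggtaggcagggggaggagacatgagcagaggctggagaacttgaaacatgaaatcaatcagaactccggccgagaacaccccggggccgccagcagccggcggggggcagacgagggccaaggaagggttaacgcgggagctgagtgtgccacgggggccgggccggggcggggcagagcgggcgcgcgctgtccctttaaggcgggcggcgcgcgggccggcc

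Sp5 holds a match that begins 104 bases before the start site and Dkk1 one that begins 117 bases before it, while these letters are not in this window of Axin2. The windows of Sp5 and Dkk1 end at the start of the gene, and that of Axin2 does not. Among the 28 member genes with a listed region, 4 hold a match (Sp5, Dkk1, Gsk3a and Wnt5b), or 9.76% of their 41 regions, against 7.48% of all 32851 regions. A match is a string of letters and not a shown binding site.

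None of the 44 members passed the test. The filter asked for 1 FPKM or more in 3 or more libraries, which 28 members met, and differences were fitted over all 11576 such genes as log2(FPKM + 1), deficient-labelled minus WT, with limma. Past an adjusted p of 0.05 lay 0 of the 28 members higher and 0 lower, where 0.7% of all tested genes were called (81 genes), 0.631% higher and 0.0691% lower. The smallest limma adjusted p of a member was 0.202, for Wnt10a. At an unadjusted p under 0.05 there were 4 members, Wnt10a higher and Apcdd1, Fzd6 and Jup lower, where the share over all tested genes was 10%, with 5.75% higher and 4.29% lower. The median log2 difference of the tested members was -0.25, beside 0.03 over all tested genes, with 10 members above 0 and 18 below. The median of the members was 0.06 without WT replicate 3, beside 0.20 over all genes, -0.08 without deficient-labelled replicate 3, beside -0.07 over all genes, and -0.12 without WT replicate 2, beside 0.01 over all genes.

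In 7 of the 28 tested members (25%) the 2 groups of libraries did not overlap, where 15.3% of all tested genes did not. Of these, 3 lay above WT (Wnt10a, Ryk and Dvl1), with a share of 8.73% over all genes, and 4 lay below (Fzd6, Jup, Apcdd1 and Gsk3b), with a share of 6.57%. Fzd6 and Apcdd1 passed the filter only through the 3 WT libraries, so for them passing the filter fixed both the separation and its direction. Without genes of that kind, 5 of 26 members did not overlap (19.2%), where 13.7% of 11365 genes did not, and 2 of the 26 (Wnt10a and Jup) were at an unadjusted p under 0.05, where 8.75% of those genes were. Without deficient-labelled replicate 3, 11 of 27 tested members did not overlap, where the share over all genes was 27.9%. The count of 81 called genes was itself 0 without deficient-labelled replicate 1, WT replicate 1 or WT replicate 2, 1 without deficient-labelled replicate 2 and 21 without deficient-labelled replicate 3.

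**Figure D1:**
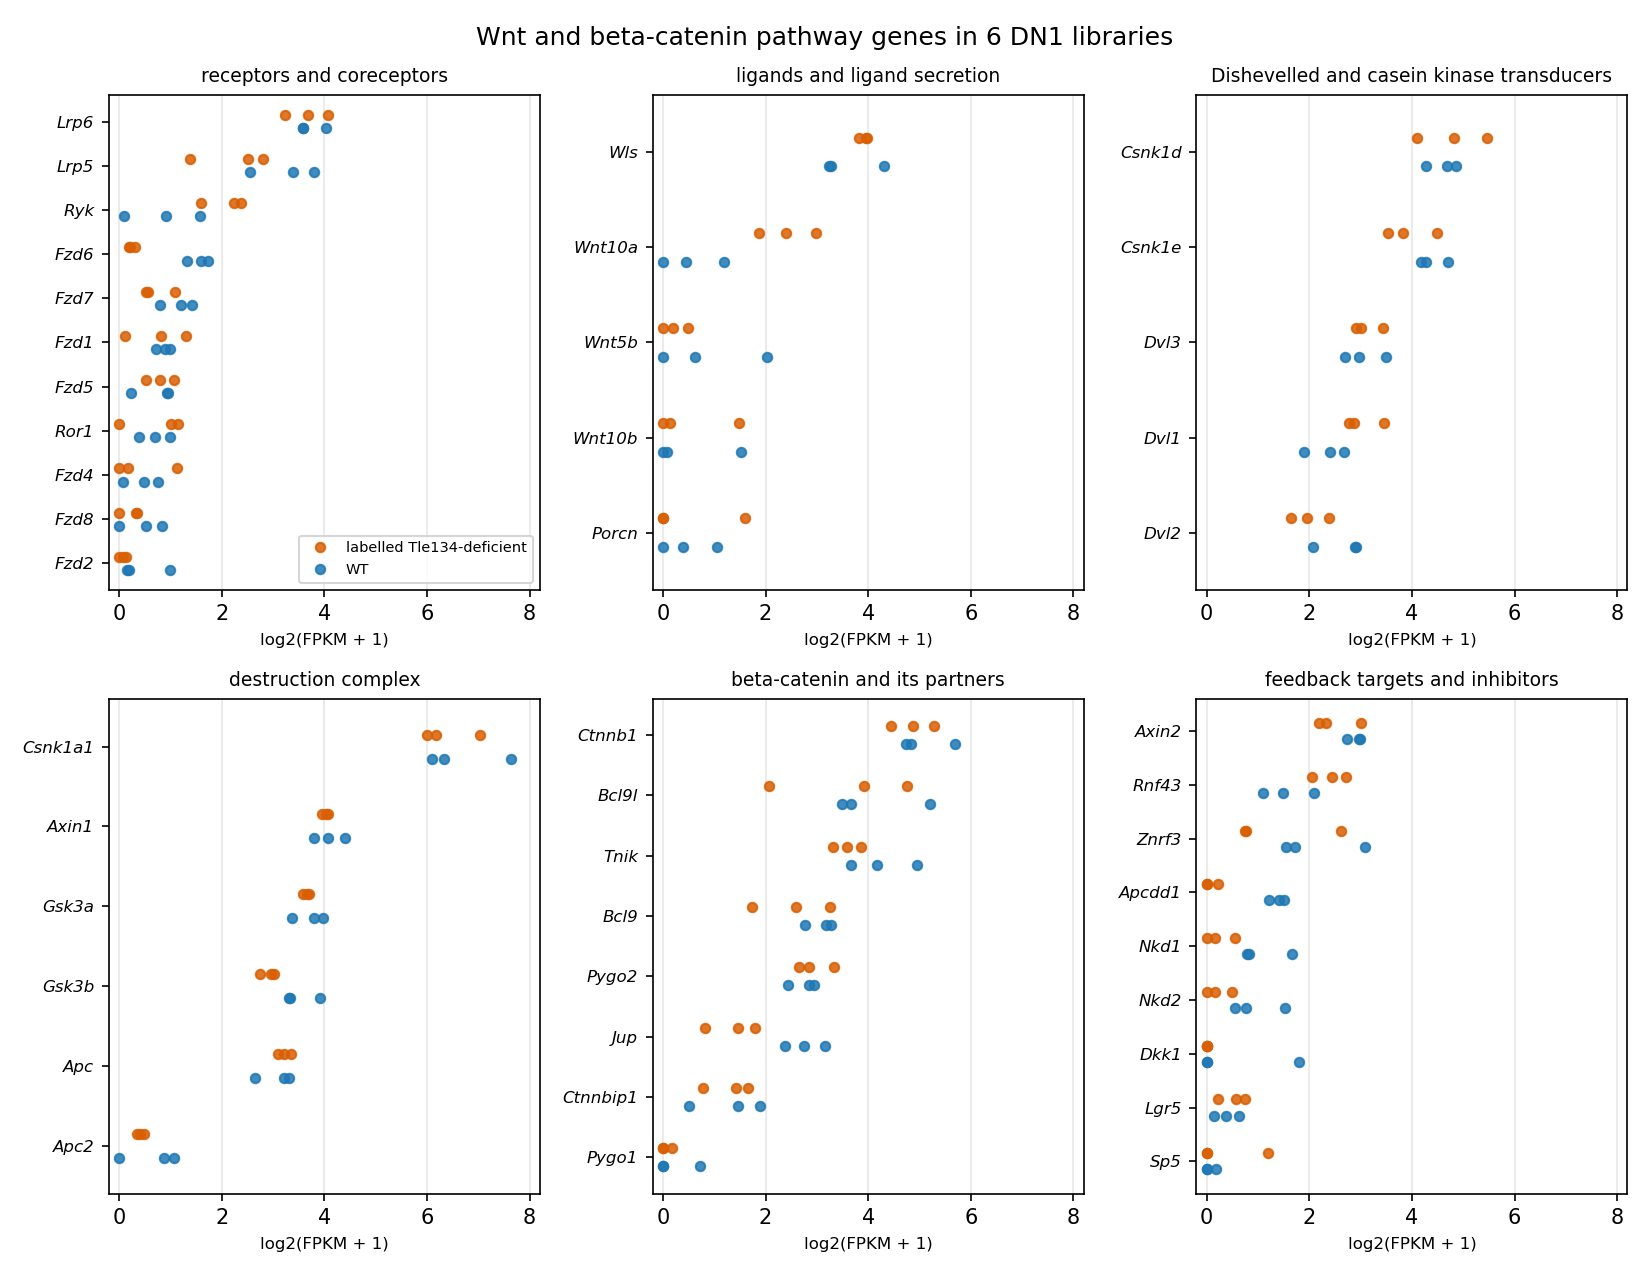
Level of each of the 44 members as log2(FPKM + 1) on the horizontal axis, in 6 panels by role, with 3 points per gene for the libraries labelled Tle134-deficient (orange, upper) and 3 for WT (blue, lower). Csnk1a1, Ctnnb1 and Csnk1d lead their panels, the Frizzled genes lie near 0, and Fzd6, Apcdd1 and Jup have all 3 orange points left of the blue ones.

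Among ligands, Wnt10a had the largest difference of any member on the log2(FPKM + 1) scale, although Apcdd1 passed it with a pseudocount of 0.1. It encodes a Wnt ligand that acts through beta-catenin and is known for its part in teeth, hair and skin. Wnt10a (mm9 chromosome 1, 74838593 to 74850749) stood at 6.90, 2.64 and 4.26 FPKM in deficient-labelled replicates 1 to 3, against 1.27 and 0.364 FPKM in WT replicates 1 and 2 and a listed 0 in WT replicate 3. All deficient-labelled libraries lay above all WT libraries, with a log2 difference of 1.87 ± 0.53 (SE, 95% interval 0.67 to 3.07, limma unadjusted p = 0.00626, adjusted p = 0.202). The interval of each value implies 57.3 to 104 fragments in the deficient-labelled libraries and at most 13 in WT. Wnt5b and Wnt10b, the other ligands among the members, were each at 0 in a library of either group, with highest values of 0.404 and 1.78 FPKM in the deficient-labelled libraries and 3.07 and 1.87 FPKM in WT, and neither passed the filter.

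Ligand secretion needs Porcn, the acyltransferase that attaches the lipid, and Wls, the carrier that takes Wnt to the cell surface. Porcn was listed at 0, 2.04 and 0 FPKM in the deficient-labelled libraries, against 0.305, 0 and 1.08 FPKM in WT. It reached 1 FPKM only in deficient-labelled replicate 2 and WT replicate 3, and was not tested. Wls was the highest gene of this role, at 14.4, 13.2 and 14.7 FPKM in the deficient-labelled libraries against 8.63, 8.40 and 18.9 FPKM in WT. The groups overlapped, with a log2 difference of 0.31 ± 0.43 (limma adjusted p = 0.905, 95% interval -0.65 to 1.27). The value of deficient-labelled replicate 3 has a deposited interval of 0 to 6879 FPKM and carries almost no weight as a measurement.

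Frizzled receptors bind the ligand, and the 7 among the members were low in every library. They summed to 4.29, 3.05 and 1.79 FPKM in the deficient-labelled libraries, against 6.70, 4.49 and 6.48 FPKM in WT, with no overlap as deposited or after median-ratio scaling, but with overlap after quantile normalization. Of the 7, only Fzd6 and Fzd2 lay below WT in every deficient-labelled library as deposited, so the sum is no measure of a common direction. With Fzd3, Fzd9 and Fzd10, which are not members, the 10 genes summed to 4.29, 8.19 and 1.88 FPKM in the deficient-labelled libraries against 7.63, 4.97 and 7.23 FPKM in WT, and the groups overlapped as deposited. Fzd3 was at 5.09 FPKM in deficient-labelled replicate 2, at 0 and 0.0844 FPKM in replicates 1 and 3 of that group, and at 0.204, 0.126 and 0.206 FPKM in WT. Only 2 of the 7, Fzd6 and Fzd7, passed the filter.

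Fzd6, a Frizzled best known for planar polarity in hair and skin, had the largest difference in mean FPKM of the 7. Fzd6 (mm9 chromosome 15, 38837826 to 38869736) stood at 0.158, 0.234 and 0.146 FPKM in the deficient-labelled libraries, against 1.52, 2.03 and 2.33 FPKM in WT. All 3 WT values lay above all 3 deficient-labelled ones, a separation that passing the filter through WT alone had fixed. The log2 difference was -1.32 ± 0.42 (SE, 95% interval -2.27 to -0.37, limma unadjusted p = 0.0117, adjusted p = 0.263), and its p-value carries that selection. The implied support was 2.15 to 11.2 fragments in the deficient-labelled libraries and 31.1 to 65.5 in WT, which makes the WT level the better measured.

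The other Frizzled members held no such gap. Fzd7 overlapped between the groups at 0.442 to 1.12 FPKM in the deficient-labelled libraries and 0.731 to 1.69 FPKM in WT (adjusted p = 0.858). Fzd1, Fzd4, Fzd5 and Fzd8 overlapped too and were not tested, with no value above 1.46 FPKM in the deficient-labelled libraries or above 1 FPKM in WT. Fzd2 was lower in all deficient-labelled libraries, at 0.0596, 0.102 and 0 FPKM in those libraries against 1, 0.111 and 0.144 FPKM in WT, where only WT replicate 1 stands away from 0.

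The coreceptors Lrp5 and Lrp6, which pair with Frizzled at the membrane, were the best expressed receptors. Lrp6 stood at 8.33, 15.9 and 11.9 FPKM in the deficient-labelled libraries against 11, 15.4 and 10.9 FPKM in WT, and the groups overlapped throughout (log2 difference -0.07 ± 0.40, 95% interval -0.98 to 0.84, limma adjusted p = 0.986). Lrp5 stood at 1.6, 4.72 and 5.99 FPKM in the deficient-labelled libraries against 9.46, 12.8 and 4.86 FPKM in WT. WT replicate 3 fell inside the deficient-labelled range, and the log2 difference of -1.01 ± 0.55 did not pass (adjusted p = 0.624). The ratio of Lrp5 to Lrp6 within a library, which a single factor per library cannot alter, was 0.192, 0.297 and 0.504 in the deficient-labelled libraries and 0.863, 0.831 and 0.445 in WT, again with WT replicate 3 inside the other group's range.

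Ryk and Ror1 are receptor tyrosine kinase-like proteins that bind Wnt outside the Frizzled family. Ryk (mm9 chromosome 9, 102737250 to 102810637 in most libraries) stood at 2, 4.21 and 3.74 FPKM in the deficient-labelled libraries, against 0.877, 0.0652 and 1.98 FPKM in WT. The groups did not overlap, but deficient-labelled replicate 1 and WT replicate 3 were 2 and 1.98 FPKM, and the deposited intervals of that pair, 1.24 to 2.77 and 1.38 to 2.57 FPKM, cover each other. The log2 difference was 1.21 ± 0.54 (SE, limma unadjusted p = 0.0507, adjusted p = 0.501). Ror1 reached at most 1.22 FPKM in the deficient-labelled libraries and 0.999 FPKM in WT, with overlap, and was not tested.

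Dishevelled proteins carry the signal from Frizzled to the destruction complex, and the 3 genes as a sum did not separate the groups, at 16.9, 18.6 and 19.0 FPKM in the deficient-labelled libraries and 12.7, 22.1 and 16.3 FPKM in WT. Within the family, Dvl1 stood at 6.27, 5.86 and 9.91 FPKM in the deficient-labelled libraries against 2.71, 5.42 and 4.30 FPKM in WT, above WT in all libraries by a narrow margin (log2 difference 0.70 ± 0.46, limma adjusted p = 0.709). Dvl2 leaned the other way with overlap, at 4.19, 2.90 and 2.11 FPKM in the deficient-labelled libraries against 3.20, 6.43 and 6.54 FPKM in WT (adjusted p = 0.758). The ratio of Dvl1 to Dvl2 was thus 1.5, 2.02 and 4.71 in the deficient-labelled libraries and 0.846, 0.844 and 0.657 in WT, a pair picked after the values were seen and given without a test. Dvl3, at 6.48 to 9.88 FPKM in the deficient-labelled libraries and 5.44 to 10.3 FPKM in WT, lay at the same height in both groups within their spread (adjusted p = 0.987).

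Casein kinase 1 delta and epsilon act on Dishevelled and other substrates. Csnk1d was the highest gene of this role, at 16.2, 43.3 and 27.1 FPKM in the deficient-labelled libraries against 18.5, 28 and 24.9 FPKM in WT, with overlap (log2 difference 0.18 ± 0.45, limma adjusted p = 0.963). Csnk1e ranged from 10.7 to 21.3 FPKM in the deficient-labelled libraries and from 17 to 25.0 FPKM in WT (adjusted p = 0.826).

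The destruction complex was expressed in full in all 6 libraries apart from Apc2, a relative of Apc known from neurons, which reached 0.389 FPKM in the deficient-labelled libraries and 1.11 FPKM in WT. That highest WT value, of replicate 2, has a deposited interval of 0 to 4.35 FPKM, with an implied 0.466 fragments. Csnk1a1, the kinase that primes beta-catenin, was the most abundant of all members at 129, 62.9 and 71.5 FPKM in the deficient-labelled libraries against 67.1, 79.4 and 197 FPKM in WT. Each group held 1 library far above its other two, deficient-labelled replicate 1 and WT replicate 3, and the groups overlapped (log2 difference -0.28 ± 0.56, limma adjusted p = 0.952).

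The scaffold Axin1 lay close together in both groups. It stood at 15.4, 15.9 and 14.5 FPKM in the deficient-labelled libraries against 15.7, 12.9 and 20.2 FPKM in WT, with a log2 difference of -0.07 ± 0.37 (95% interval -0.90 to 0.77, limma adjusted p = 0.986). Apc, the other scaffold, spanned 7.49 to 9.13 FPKM in the deficient-labelled libraries and 5.29 to 8.90 FPKM in WT (adjusted p = 0.968).

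Of the kinase pair that phosphorylates beta-catenin for degradation, Gsk3b separated the groups and Gsk3a did not. Gsk3b (mm9 chromosome 16, 38089087 to 38246165) stood at 5.72, 7.09 and 6.76 FPKM in the deficient-labelled libraries, against 9.08, 14.1 and 8.94 FPKM in WT. The log2 difference was -0.61 ± 0.40 (SE, 95% interval -1.51 to 0.28, limma adjusted p = 0.709), and after median-ratio scaling the groups overlapped. Gsk3a stood at 10.9 to 12 FPKM in the deficient-labelled libraries and 9.29 to 14.7 FPKM in WT (adjusted p = 0.986). The ratio of Gsk3b to Gsk3a was 0.495, 0.593 and 0.618 in the deficient-labelled libraries and 0.978, 1.08 and 0.608 in WT, so WT replicate 3 did not stand apart from the deficient-labelled libraries by this measure.

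**Figure D2:**
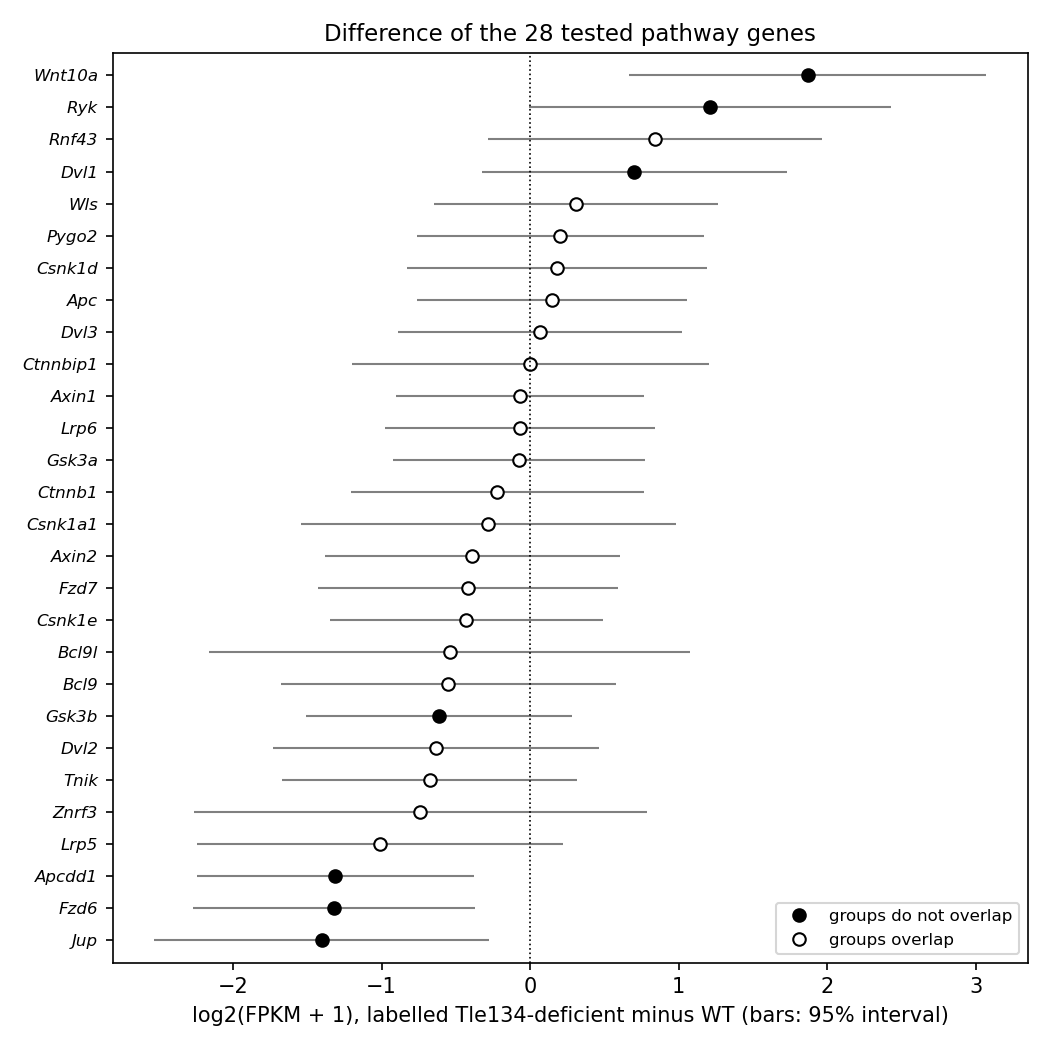
Difference of each of the 28 tested members on the log2(FPKM + 1) scale, labelled Tle134-deficient minus WT, with its 95% interval, and filled points where the groups of 3 libraries do not overlap. The intervals of Wnt10a, Apcdd1, Fzd6 and Jup do not include 0, and none of the 28 passed an adjusted p of 0.05. For Apcdd1 and Fzd6, passing the filter had fixed the separation and its direction.

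Beta-catenin itself, the transducer of the pathway, showed no separation. Ctnnb1 (mm9 chromosome 9, 120842518 to 120869625) stood at 28.3, 20.7 and 37.7 FPKM in the deficient-labelled libraries, against 27.4, 25.5 and 50.6 FPKM in WT, averaging 28.9 ± 8.49 and 34.5 ± 13.9 FPKM (SD, n = 3 each). The highest library of each group is replicate 3 and the ranges overlap. The log2 difference was -0.22 ± 0.44 (95% interval -1.21 to 0.77, limma adjusted p = 0.952). RNA levels say nothing of the stability of the protein, which is where the pathway acts.

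Jup encodes plakoglobin, the close relative of beta-catenin at cell junctions, and on the log2(FPKM + 1) scale it had the largest difference among the lower members, although Apcdd1 and Fzd6 differed more with a pseudocount of 0.5 or 0.1. Jup (mm9 chromosome 11, 100230170 to 100259104 in most libraries) stood at 0.763, 2.49 and 1.75 FPKM in the deficient-labelled libraries, against 5.69, 7.91 and 4.23 FPKM in WT. All 3 deficient-labelled libraries lay below WT, by -1.40 ± 0.50 on the log2 scale (SE, 95% interval -2.53 to -0.27, limma unadjusted p = 0.0201, adjusted p = 0.339). Both groups were above the level of a few fragments, with an implied 18.0 to 119 in the deficient-labelled libraries and 160 to 271 in WT. The ratio of Jup to Ctnnb1 was 0.0269, 0.120 and 0.0465 in the deficient-labelled libraries and 0.207, 0.310 and 0.0837 in WT, with WT replicate 3 below deficient-labelled replicate 2.

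The coactivators that bind beta-catenin in the nucleus overlapped between the groups. Bcl9l, an adaptor that links beta-catenin to Pygopus, had the widest spread, at 26.1, 14.1 and 3.21 FPKM in the deficient-labelled libraries against 11.7, 36.0 and 10.3 FPKM in WT (adjusted p = 0.900). Its relative Bcl9 stood at 2.35 to 8.54 FPKM in the deficient-labelled libraries and 5.84 to 8.72 FPKM in WT (adjusted p = 0.818). The Bcl9 value of 2.35 FPKM, of deficient-labelled replicate 3, has a deposited interval of 0.0385 to 4.67 FPKM. Pygo2, a reader of histone methylation in the same complex, stood at 5.28 to 9.11 FPKM in the deficient-labelled libraries and 4.43 to 6.64 FPKM in WT. Ctnnbip1, an inhibitor of the binding of beta-catenin to Tcf, stood at 0.721 to 2.15 FPKM in the deficient-labelled libraries and 0.418 to 2.71 FPKM in WT. Pygo1 was at or near 0 throughout, with a highest value of 0.134 FPKM in the deficient-labelled libraries and 0.645 FPKM in WT. Tnik, a kinase that phosphorylates Tcf7l2, stood at 8.90, 13.5 and 11 FPKM in the deficient-labelled libraries against 17, 11.6 and 29.9 FPKM in WT, where WT replicate 2 fell inside the deficient-labelled range (log2 difference -0.68 ± 0.44, adjusted p = 0.710).

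Axin2, the feedback inhibitor most often used to read beta-catenin activity, was the best expressed of the 9 feedback targets and did not pass. It stood at 4.02, 3.56 and 7.01 FPKM in the deficient-labelled libraries, against 6.84, 5.65 and 6.91 FPKM in WT. Deficient-labelled replicate 3 was the highest of all 6, and the log2 difference was -0.39 ± 0.44 (95% interval -1.38 to 0.60, limma adjusted p = 0.866). Its ratio to Axin1 was 0.261, 0.225 and 0.483 in the deficient-labelled libraries and 0.434, 0.439 and 0.341 in WT.

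Apcdd1, a membrane-bound inhibitor that binds Wnt and Lrp5, was listed at 0, 0.162 and 0 FPKM in the deficient-labelled libraries, against 1.65, 1.33 and 1.86 FPKM in WT. Apcdd1 (mm9 chromosome 18, 63081981 to 63112849 in most libraries) thus had all WT libraries above all deficient-labelled ones, with an implied 25.0 to 54.0 fragments in WT and at most 6 in the deficient-labelled libraries. Passing the filter through WT alone had fixed this separation and its direction. The log2 difference was -1.31 ± 0.41 (SE, 95% interval -2.24 to -0.38, limma unadjusted p = 0.011, adjusted p = 0.251), and its p-value carries that selection.

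Nkd1 and Nkd2, which bind Dishevelled and dampen the signal, were low and lay below WT in each deficient-labelled library. Nkd1 stood at 0, 0.474 and 0.121 FPKM in the deficient-labelled libraries against 2.15, 0.714 and 0.780 FPKM in WT. The deposited Nkd1 interval of deficient-labelled replicate 2 runs from 0 to 1.43 FPKM, with an implied 0.978 fragments. That interval covers the WT values of 0.714 and 0.780 FPKM. Nkd2 stood at 0.406, 0.116 and 0 FPKM in the deficient-labelled libraries against 1.87, 0.469 and 0.696 FPKM in WT, with overlap after quantile normalization. The deposited Nkd2 interval of deficient-labelled replicate 1 runs from 0.0745 to 0.737 FPKM and covers the WT values of 0.469 and 0.696 FPKM. WT replicate 1 was the highest library for both genes, neither passed the filter on low values, and no difference was fitted.

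Rnf43 and Znrf3 are membrane ubiquitin ligases that remove Frizzled from the cell surface. Rnf43 stood at 5.60, 4.44 and 3.13 FPKM in the deficient-labelled libraries against 1.14, 1.82 and 3.27 FPKM in WT, where WT replicate 3 lay just above deficient-labelled replicate 3 (log2 difference 0.84 ± 0.50, limma adjusted p = 0.669). After median-ratio scaling those groups no longer overlapped. Znrf3 stood at 0.697, 5.15 and 0.681 FPKM in the deficient-labelled libraries against 1.92, 7.47 and 2.30 FPKM in WT, with replicate 2 the highest of either group (adjusted p = 0.821). In WT replicate 2 its locus was joined with that of Kremen1, so that value belongs to both genes, and the deposited interval of deficient-labelled replicate 3 runs from 0 to 7.83 FPKM.

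The last 3 feedback targets were close to absent from the tables. Dkk1, a secreted antagonist of Lrp5 and Lrp6, was listed at 0 in the deficient-labelled libraries and at 2.48, 0 and 0 FPKM in WT. Sp5, a transcription factor induced by beta-catenin, was listed at 1.30, 0 and 0 FPKM in the deficient-labelled libraries against 0, 0.135 and 0 FPKM in WT. Lgr5, a receptor for R-spondins and a stem cell marker, stood at 0.678, 0.495 and 0.173 FPKM in the deficient-labelled libraries against 0.303, 0.0987 and 0.547 FPKM in WT. None of these 3 was tested, and Sp5 and Dkk1 are the pair whose upstream regions above hold the searched letters.

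The 9 feedback targets summed to 12.7, 14.4 and 11.1 FPKM in the deficient-labelled libraries, against 18.3, 17.7 and 16.4 FPKM in WT. The groups did not overlap as deposited or after quantile normalization, but overlapped after median-ratio scaling. Without Znrf3, whose value in WT replicate 2 is shared with Kremen1, the sums were 12, 9.25 and 10.4 FPKM in the deficient-labelled libraries and 16.4, 10.2 and 14.1 FPKM in WT, and the groups overlapped. Rnf43 had a higher mean in the deficient-labelled libraries within that sum, so the sum is no measure of a common direction.

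**Figure D3:**
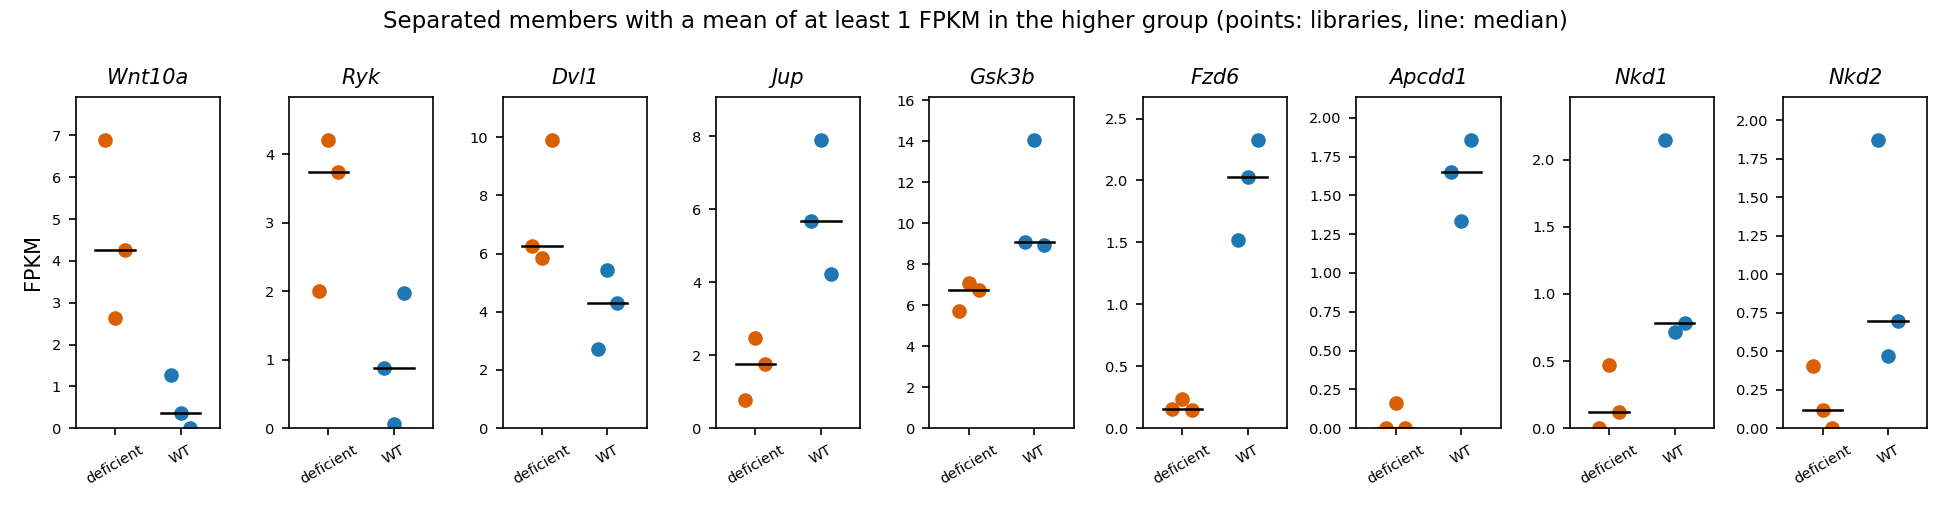
FPKM of each library for the 9 members whose groups do not overlap and whose higher group averages at least 1 FPKM, with labelled Tle134-deficient left (orange) and WT right (blue), a line at each median and an axis from 0 for each gene. Wnt10a, Ryk and Dvl1 lie higher in the deficient-labelled libraries and the other 6 lower, with the closest pair of libraries in Ryk.

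The other genes of the pathway were read from a list of 68 chosen by role. Of these, 27 passed the filter, 0 were called higher and 0 lower, and 2 did not overlap between groups (7.41%, where 15.3% of all tested genes did not). Of 16 other Wnt ligands only Wnt2b was tested, at 0.424, 3.61 and 0.611 FPKM in the deficient-labelled libraries and 1.36, 1.71 and 0.293 FPKM in WT (limma adjusted p = 0.985), and 9 reached 1 FPKM in no library. Ptk7, a Wnt coreceptor of planar polarity, stood at 1.26, 1.77 and 0.350 FPKM in the deficient-labelled libraries against 6.76, 6.55 and 2.89 FPKM in WT (log2 difference -1.59 ± 0.53, limma unadjusted p = 0.0147, adjusted p = 0.300). Among secreted modulators and their receptors, Kremen1, which binds Dkk proteins, stood at 4.37, 3.43 and 1.61 FPKM in the deficient-labelled libraries against 6, 7.47 and 6.37 FPKM in WT (adjusted p = 0.582), with the WT replicate 2 value shared with Znrf3, and the groups overlapped when shared loci were kept joined.

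Among cytosolic components, Cxxc5, an inhibitor of Dishevelled, was the other gene at an unadjusted p under 0.05, at 17.6, 12.8 and 10.04 FPKM in the deficient-labelled libraries against 17.1, 35.3 and 30.7 FPKM in WT, with overlap (limma adjusted p = 0.497). Cby1, a beta-catenin antagonist, overlapped at 1.36, 1.63 and 7.49 FPKM in the deficient-labelled libraries against 5.14, 6.29 and 18.1 FPKM in WT (adjusted p = 0.561). Amer1, a membrane adaptor of Apc, turned on 1 library, at 31.6, 1.10 and 1.91 FPKM in the deficient-labelled libraries against 1.63, 2.20 and 2.58 FPKM in WT (adjusted p = 0.845). Csnk2b, the regulatory subunit of casein kinase 2, was the highest gene of that role at 35.8 to 71.3 FPKM in the deficient-labelled libraries and 34.6 to 80.6 FPKM in WT (adjusted p = 0.996). Dkkl1, Dkk3 and Rspo1, among the secreted modulators, and Reck, among the receptors, all overlapped, with adjusted p between 0.904 and 0.986.

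Of the Tcf/Lef factors that receive beta-catenin, Tcf7 and Lef1 were abundant, while Tcf7l1 lay at 0.603 to 1.4 FPKM in the deficient-labelled libraries and 0.751 to 3.46 FPKM in WT, and Tcf7l2 at 4.33 to 16.5 FPKM in the deficient-labelled libraries and 6.65 to 9.61 FPKM in WT. Tcf7 stood at 239, 121 and 39.5 FPKM in the deficient-labelled libraries against 229, 164 and 213 FPKM in WT (limma adjusted p = 0.742). Lef1 stood at 85.6, 40.1 and 8.93 FPKM in the deficient-labelled libraries against 69.5, 28.6 and 48.4 FPKM in WT (adjusted p = 0.911). Tcf7 and Lef1 both overlapped, and deficient-labelled replicate 3 was the lowest library for each. The corepressor Ctbp2, at 1.71 to 11.3 FPKM in the deficient-labelled libraries and 0.647 to 2.43 FPKM in WT, and Cdc73, a beta-catenin cofactor, at 12.8 to 20.1 FPKM in the deficient-labelled libraries and 9.57 to 13.6 FPKM in WT, overlapped too.

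B-cell markers separated the groups as a sum, and the other 4 marker sums overlapped, although single genes of each of those lists did separate the groups. The 12 B-cell markers summed to 1100.4, 935 and 679.6 FPKM in the deficient-labelled libraries against 80.4, 78.6 and 155 FPKM in WT, and 8 of the 12, with Cd79a, Cd79b and Pax5 among them, passed the test as higher (limma adjusted p = 0.0197 to 0.034), where 0.631% of all tested genes did. That count of 8 was 5 with a pseudocount of 0.1, 3 without deficient-labelled replicate 3, and 0 with the replicate block, with no filter, or without deficient-labelled replicate 1 or 2 or WT replicate 1 or 2. The list was chosen with earlier results of these data known, so its count beside that share is no independent evidence. None of the 12 was at 0 in a deficient-labelled library, and Cr2 was at 0 in WT replicates 1 and 3. The 12 stromal and endothelial markers summed to 140.4, 104 and 51.7 FPKM in the deficient-labelled libraries against 318, 108 and 397 FPKM in WT, and 1 passed as lower, Pdgfrb, a receptor of pericytes and fibroblasts (adjusted p = 0.0485), where 0.0691% of all tested genes did. That call was lost whenever 1 library was left out. It was also lost with a pseudocount of 0.1, with no filter and with a mean filter. The same held with quantile normalization, with the replicate block, and without the trend and robust steps. Other genes of that list leaned the other way, with Pecam1, an endothelial adhesion molecule, at 39.2, 39.9 and 30.04 FPKM in the deficient-labelled libraries against 21.7, 21.1 and 17.3 FPKM in WT (adjusted p = 0.501), and with Cdh5 also above WT in every library. Krt5 was at 0 in deficient-labelled replicates 1 and 3 and in all WT libraries, and Cdh5 in WT replicates 1 and 3.

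In the 9 mast cell and basophil markers the sums were 2.13, 5.44 and 129 FPKM in the deficient-labelled libraries against 111, 56.5 and 289 FPKM in WT, with Tpsb2 and Cma1 at 0 in each deficient-labelled library. Cpa3 and Mcpt4 also lay below WT in every deficient-labelled library (limma adjusted p = 0.129 and 0.146). Mcpt4, Tpsb2 and Cma1 passed the filter through WT alone, which fixed their separation and its direction. The p-value of Mcpt4 carries that selection. In Ms4a2, Gata2 and Hdc of that list, deficient-labelled replicate 3 was the highest of all 6 libraries, at 30.1, 32.3 and 27.9 FPKM, against at most 4.66, 9.92 and 7.66 FPKM in WT. The 11 monocyte, macrophage and neutrophil markers summed to 119, 126 and 1099.6 FPKM in the deficient-labelled libraries against 112, 266 and 424 FPKM in WT, with 0 to 3 of them at 0 per deficient-labelled library and 1 to 2 per WT library. The 14 DN1 and T-lineage markers summed to 648, 422 and 332 FPKM in the deficient-labelled libraries against 689, 544 and 774 FPKM in WT, and Ptcra was at 0 in deficient-labelled replicates 1 and 3 and WT replicate 1. Within that list Cd247, at 22.6, 12.1 and 11.7 FPKM in the deficient-labelled libraries against 104, 39.7 and 106 FPKM in WT, lay below WT (limma adjusted p = 0.0988). Notch1 did so too (adjusted p = 0.337), while Il2ra lay above WT (adjusted p = 0.582). Of the sort markers, Cd44 lay at 32.5 to 74.3 FPKM in the deficient-labelled libraries and 27.5 to 53.4 FPKM in WT, and Cd8a reached 0.419 FPKM in the deficient-labelled libraries and 2.48 FPKM in WT. Il2ra, which encodes the CD25 used to exclude cells, lay at 4.22 to 7.36 FPKM in the deficient-labelled libraries and 1.69 to 3.59 FPKM in WT. The part of these cells in the values of Wnt10a, Ryk, Dvl1, Fzd6, Jup, Gsk3b, Apcdd1, Nkd1 and Nkd2 was not tested, and in bulk RNA fewer cells of a type and less RNA per cell cannot be told apart.

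**Figure D4:**
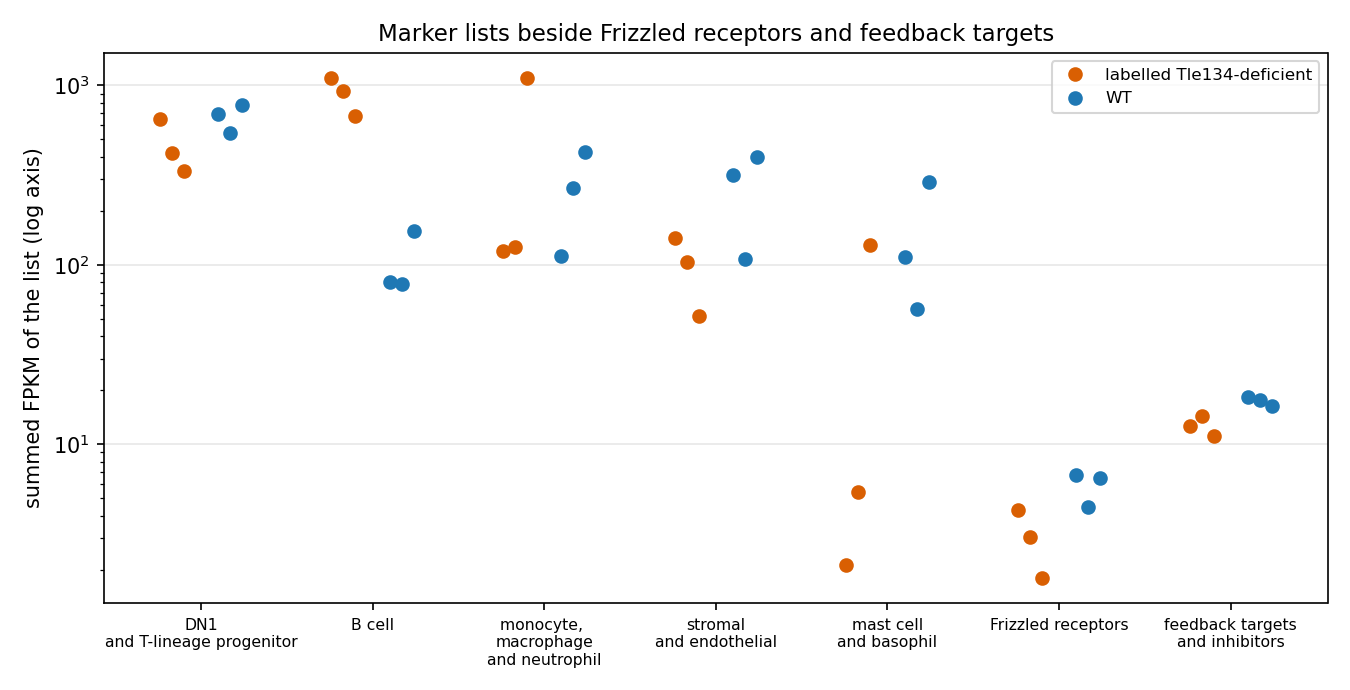
Summed FPKM on a log axis of 5 marker lists, the 7 Frizzled receptors and the 9 feedback targets, with 3 libraries labelled Tle134-deficient (orange, left) and 3 WT (blue, right) per list. B-cell markers lie at 679.6 FPKM or more in the deficient-labelled libraries and at 155 FPKM or less in WT, while the Frizzled and feedback sums as deposited lie lower in the deficient-labelled libraries by a far smaller margin. The Frizzled sum overlapped after quantile normalization. The feedback sum overlapped after median-ratio scaling, and also as deposited without Znrf3.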

How the data were processed

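RNA-seq of 6 libraries of sorted DN1 thymocytes was used, 3 labelled Tle134-deficient and 3 WT. The deposited tables hold FPKM with interval bounds on each locus, per the file headers, in the layout of a Cufflinks gene table. The submitters' processing notes name mm9 as the build and featureCounts 2.0.1, TopHat2 2.1.1 and Trimmomatic 0.38 as tools, with no role or order. The gene annotation, the version of the FPKM tool and strand use: not given in the sources used here.

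Symbols were split on commas and each gene received the summed FPKM of all loci naming it (24318 symbols, Python 3.11.15, pandas 2.3.3). Starts were raised by 1. Implied fragments take the upper bound as 2 SD of a count above the value and are approximate, since reads shared between loci widen the bound. Log2(FPKM + 1) was fitted with limma 3.58.1 (R 4.3.3), group as the only term, with trend and robust empirical Bayes steps, and Benjamini-Hochberg adjustment over 11576 genes. This scale understates the change of low genes. The fit was run on simulated data as a check of the code, and no result here rests on that run.

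The members and lists were chosen with earlier results of these data known. Values of every library are given for members that passed the test, that separated the groups with a mean of at least 1 FPKM in the higher group, that led their role or were feedback targets, and for Ctnnb1, Axin1, Gsk3b, Lrp5, Lrp6 and Porcn; other members named beyond this rule were chosen after their values were seen. From each sub-list of other pathway genes, the highest by mean and up to 3 by smallest p are given; Lef1 was added after its values were seen. Of that list 1 symbol, Fam123b, was found as Amer1 through RefSeq synonyms. Alternatives changed the pseudocount, filter, scaling, treatment of shared loci, empirical Bayes step, replicate block and libraries. Upstream sequences are from RefSeq.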

Additional observations from a re-analysis of the deposited data

How the results depend on the processing

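Across the 15 alternatives, 0 members and 0 of the other pathway genes passed an adjusted p of 0.05 in any fit. The count over all genes, 81, was 33 with a pseudocount of 0.1, 0 without a filter and 0 to 61 when 1 library was left out. The numbers of the labels are shared between groups, and every library correlated best with its own number. Correlations of deviations across genes were 0.0869, 0.187 and 0.167 for numbers 1 to 3, against -0.193 to 0.0235 for unlike numbers. These are weak, no threshold was set for them, and whether the numbers mark pairs is not given. With the replicate block as a term, 0 genes and 0 members passed, so the 81 calls depend on leaving that term out. Of 22 gene differences followed, 16 kept their direction in all alternatives that gave a value. The other 6 turned with a library left out: Ctnnb1 (0.083), Axin1 (0.092) and Csnk1a1 (0.19) without WT replicate 3, Lrp6 without deficient-labelled replicate 1 (0.15) or WT replicate 2 (0.083), Csnk1d without deficient-labelled replicate 2 (-0.16) and Lef1 without deficient-labelled replicate 3 (0.35); the cause was not tested. The ranges over libraries left out were -0.42 to 0.083 for Ctnnb1, -0.21 to 0.092 for Axin1, -0.59 to 0.19 for Csnk1a1, -0.28 to 0.15 for Lrp6, -0.16 to 0.53 for Csnk1d and -1.22 to 0.35 for Lef1. The log2 difference ranged over all fits from 1.59 to 3.45 for Wnt10a, -3.63 to -1.22 for Apcdd1, -2.87 to -1.12 for Fzd6 and -1.87 to -1.13 for Jup, the far ends with a pseudocount of 0.1. Of the 4 members at an unadjusted p under 0.05, 2 remained in number with a mean filter or without WT replicate 1, and 1 without WT replicate 2. An unchanged count did not always mean the same genes. Without deficient-labelled replicate 1 the count was 4, with Jup lost (limma unadjusted p = 0.0692) and Ryk entering (limma unadjusted p = 0.0377). Fzd6 and Apcdd1 did not pass the filter without any 1 WT library, and Apcdd1 not under the mean filter. The unknown depth limits the low members most.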
